A study of Mus musculus with 24 samples.

Results

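Liver of hPER1 S714G mice taken at ZT1 was compared with liver of hPER1 S714 control mice taken at ZT13, so that genotype and light time changed together. Zeitgeber time (ZT) counts hours from lights on, and ZT1 and ZT13 therefore lie 12 h apart on the light cycle. The members were the 3 liver arrays of each of these groups, chosen by their labels, which makes 6 of the 24 arrays of the series and 6 of its 12 liver arrays. The other 6 liver arrays, of S714G mice at ZT13 (3 arrays) and S714 mice at ZT1 (3 arrays), served as an independent crossed comparison that shares no array with the first. The question was which transcripts of the S714G liver early in the light phase matched those of the control liver early in the dark phase, and which still differed along light time.

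All mice were males, 2 months of age, on a C57BL/6 background, and had been held in light-dark cycles for 10 days. Both genotypes carried the human PER1 gene, with glycine in place of a serine in the S714G mice and with that serine kept in the S714 controls. The labels state neither how the human gene was brought in nor whether mouse Per1 was kept. The series' design text speaks of independent repeats, and the p-values below measure the spread between these samples only.

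The mammalian clock is a feedback loop. CLOCK and BMAL1 (gene Arntl) bind E-box elements and activate the Per and Cry genes, whose proteins return to inhibit them, while nuclear receptors such as the REV-ERBs set the rhythm of Arntl. In liver, part of the daily transcript rhythm is run by this local loop. Another part is driven from outside the liver by feeding, body temperature and adrenal glucocorticoids, and Per1 and Per2 can answer to both.

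The promoters of 4 transcripts on which the comparison turned are shown, because they range from E-boxes through a heat shock element to neither. The sequences are those of RefSeq on GRCm38.p6, are each 300 bases long and span the annotated start, and are printed 5′ to 3′ on the gene's strand. Capitals mark the E-box (CACGTG, the same on both strands) or the heat shock element (GAANNTTC, searched on both strands), and no capitals overlap.
Dbp, chr7:45704997-45705296, plus strand: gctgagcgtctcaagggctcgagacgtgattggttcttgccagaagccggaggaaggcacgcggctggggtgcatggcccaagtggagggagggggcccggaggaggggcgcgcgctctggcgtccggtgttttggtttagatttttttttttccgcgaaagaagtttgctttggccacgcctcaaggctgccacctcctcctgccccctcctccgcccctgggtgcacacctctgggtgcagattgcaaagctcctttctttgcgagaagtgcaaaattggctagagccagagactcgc
Per1, chr11:69098699-69098998, plus strand: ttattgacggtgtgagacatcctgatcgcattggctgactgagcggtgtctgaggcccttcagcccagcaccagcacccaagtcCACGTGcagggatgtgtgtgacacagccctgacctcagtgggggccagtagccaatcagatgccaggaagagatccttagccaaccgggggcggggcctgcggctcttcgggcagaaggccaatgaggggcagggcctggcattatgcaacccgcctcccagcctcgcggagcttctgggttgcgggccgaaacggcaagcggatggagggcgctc
Ciart, chr3:95882179-95882478, minus strand: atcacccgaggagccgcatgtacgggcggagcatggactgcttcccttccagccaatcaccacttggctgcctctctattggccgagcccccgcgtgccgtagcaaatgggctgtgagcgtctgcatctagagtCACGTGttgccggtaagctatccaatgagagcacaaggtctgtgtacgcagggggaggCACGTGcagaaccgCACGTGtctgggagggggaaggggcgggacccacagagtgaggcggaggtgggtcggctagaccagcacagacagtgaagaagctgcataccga
Hspa1a, chr17:34972107-34972406, minus strand: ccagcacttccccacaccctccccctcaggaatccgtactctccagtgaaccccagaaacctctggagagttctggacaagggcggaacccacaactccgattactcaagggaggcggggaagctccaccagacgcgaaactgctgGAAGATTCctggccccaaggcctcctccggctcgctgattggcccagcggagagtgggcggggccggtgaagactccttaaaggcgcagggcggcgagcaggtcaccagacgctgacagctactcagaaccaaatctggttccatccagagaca
In these windows Ciart held 3 E-boxes and Per1 held 1, whereas the Dbp window held none. A second Per1 window, not printed, held no E-box. Of 32851 promoter windows of the same length, 7.15% held an E-box and 7.86% held a heat shock element. A match describes letters in the window and is no proof of a site, and the Dbp result says only that these letters are absent from these 300 bases.

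Each array gave 62976 spots. Values are the log2 processed signal relative to the 75th percentile of its own array, called log2 signal here, and each gene was read from its brightest probe. The 75th percentile itself lay at 988 to 1061 intensity units on the S714G ZT1 arrays and at 858 to 1105 on the S714 ZT13 arrays. Over 21524 genes, correlations between S714G ZT1 and S714 ZT13 arrays lay between 0.976 and 0.987 (median 0.981), against 0.986 to 0.993 among the S714G ZT1 arrays and 0.985 to 0.991 among the S714 ZT13 arrays. S714G ZT13 arrays had a median correlation of 0.985 to each of these groups, above that between them, so the likeness was not particular to this pair. The S714 ZT1 arrays stood apart, with a median correlation of 0.946 to the S714G ZT1 arrays and 0.937 to the S714 ZT13 arrays. They alone among the liver arrays lay on slide 1, so slide and group cannot be told apart wherever they enter. The S714G ZT1 arrays lay on slide 2 together with S714 ZT13 replicate 1, and S714 ZT13 replicates 2 and 3 lay on slide 3 with the S714G ZT13 arrays. A fit with slide as a block therefore takes the difference of interest from slide 2 alone, which leaves a single S714 ZT13 array.

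The S714G liver at ZT1 and the control liver at ZT13 were alike for most genes, and a small share differed by several-fold. Of 34782 genes on the array, 21836 entered the test, because every array of 1 or more liver groups read them well above background. Limma called 614 of them different (2.81% of genes tested, Benjamini-Hochberg adjusted p below 0.05), of which 321 were higher in S714G ZT1 (1.47%) and 293 lower (1.34%). A difference of at least 2-fold was called for 340 genes (1.56%), 186 higher and 154 lower. For 15996 genes (73.3%) the 95% interval of the difference lay wholly within 2-fold, which is the definition of a match used here, and 5277 genes were neither called nor matched. The 614 genes include 51 that were called and matched, since a small difference can be well measured. The 3 and 3 values did not overlap for 31.1% of genes tested. The median difference was -0.01 and the median size 0.22 on the log2 scale, against a median standard error of 0.217. The other crossed comparison, S714G ZT13 minus S714 ZT1, had a median size of 0.58 with 10651 genes called (48.8%).

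**Figure D1:**
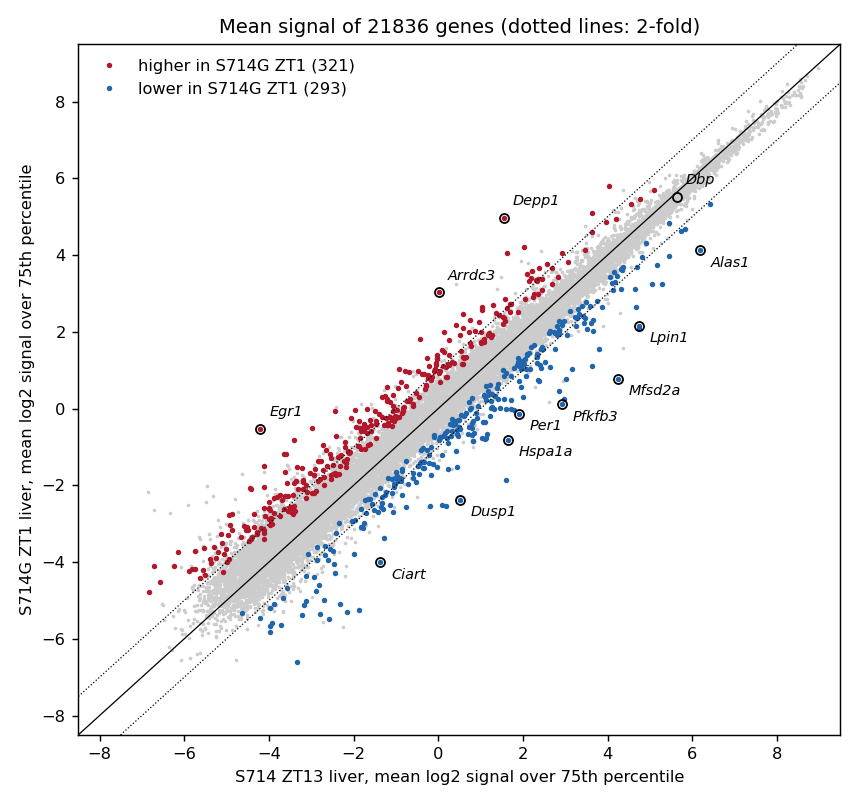
Mean log2 signal of each of 21836 genes in S714G ZT1 liver (vertical axis) against S714 ZT13 liver (horizontal axis), with genes called higher (321) or lower (293) in S714G ZT1 in colour and 2-fold limits dotted. Most genes lie between the dotted lines, and Egr1 and Mfsd2a lie far from them on opposite sides.

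The number of called genes depended on single arrays and on the slide. It was 185, 170 and 270 without S714G ZT1 replicate 1, 2 or 3, and 384, 220 and 199 without S714 ZT13 replicate 1, 2 or 3. It fell to 377 without S714G ZT13 replicate 3, and it stood at 1306 and 945 without S714 ZT1 replicate 1 or 2, which do not enter the difference itself. With slide as a block, 83 genes were called (0.38%), 63 of them among the 614. All 614 kept their sign in that fit, which was given in advance wherever no value was missing, since their groups did not overlap. Of the 82 called genes among those selected by rule for description, 37 kept their call without each liver array in turn, 24 kept it with slide as a block, and 8 kept it in all of these fits and in the test within slide 2 (0.174% of genes called). Those 8 were Pfkfb3, Lpin1, Dusp1, Alas1, Hspa1a, Arrdc3, Chrna4 and Cd55b.

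Core clock genes fell into matched and unmatched members. Of 23, 11 matched (73.3% of all genes did), 1 was called higher, 6 were called lower (2.81% of all genes were called) and 5 were neither, with a median difference of -0.25. Dbp, a clock-output activator whose promoter is printed above, had log2 signals of 5.63, 5.47 and 5.46 in S714G ZT1 livers, against 5.44, 5.80 and 5.66 in S714 ZT13 livers. The groups overlapped, and the difference was -0.12 with a standard error of 0.167 and a 95% interval of -0.48 to 0.25. The same gene averaged 2.04 ± 0.17 in S714G ZT13 livers and 2.35 ± 0.24 in S714 ZT1 livers (SD, n = 3 each), so all 6 of those arrays lay far below. A second Dbp probe gave a difference of 0.14.

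Nr1d2, which encodes a REV-ERB repressor, had log2 signals of 1.19, 1.26 and 1.10 in S714G ZT1 livers and 0.76, 1.62 and 0.97 in S714 ZT13 livers. Its difference was 0.06 (95% interval -0.43 to 0.55), and the groups overlapped. The array design places this probe on another chromosome than RefSeq places the gene, and a second Nr1d2 probe gave 0.18. Tef, a relative of Dbp, averaged 3.26 ± 0.03 in S714G ZT1 livers and 3.58 ± 0.06 in S714 ZT13 livers (SD, n = 3 each), a difference of -0.32 that stayed inside the margin. Nfil3, a repressor that competes with Dbp and Tef for their sites, differed by -0.25 (95% interval -0.75 to 0.25). Npas2, a partner of BMAL1, was well above background on 0 of the 6 arrays, so its match is one of values at the floor, whereas it averaged -2.10 in S714G ZT13 livers and -1.14 in S714 ZT1 livers. Clock differed by 0.62 (95% interval 0.26 to 0.99), and Cry2, Rora and the casein kinase genes Csnk1d and Csnk1e also matched.

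Arntl was low in both groups. It had log2 signals of -1.96, -1.86 and -2.02 in S714G ZT1 livers, against -2.03, -2.64 and -2.83 in S714 ZT13 livers. The difference of 0.55 missed the threshold (limma adjusted p = 0.199) and its interval of 0.10 to 1.01 ended just outside the margin, so Arntl was neither called nor matched. Within slide 2 the difference was 0.08. Arntl averaged 1.41 ± 0.13 in S714G ZT13 livers and 0.82 ± 0.24 in S714 ZT1 livers (SD, n = 3 each).

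Of the other clock genes, Ciart, Usp2 and Cry1 were lower in the S714G liver at ZT1. Ciart, which encodes a repressor of CLOCK and BMAL1 and has the promoter with 3 E-boxes, had log2 signals of -5.19, -3.53 and -3.30 in S714G ZT1 livers, against -1.55, -1.29 and -1.28 in S714 ZT13 livers. No values overlapped, and Ciart fell by 2.63 on the log2 scale with a standard error of 0.473 (limma adjusted p = 0.0157). S714G ZT1 replicate 1 was not well above background, so the size of the difference rests in part on a value at the floor. That call was lost without S714 ZT13 replicate 2 or 3 (adjusted p = 0.0603 and 0.0621). Usp2, a ubiquitin protease gene under clock control, fell by 2.12, with 0.80, 0.98 and 1.35 in S714G ZT1 livers and 3.02, 3.24 and 3.21 in S714 ZT13 livers (adjusted p = 0.00754). Cry1 was well above background on 0 of 3 S714G ZT1 arrays and on 3 of 3 S714 ZT13 arrays, at least 1.28-fold lower in S714G ZT1 (adjusted p = 0.0045).

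Per1 had log2 signals of 0.20, -0.55 and -0.07 in S714G ZT1 livers, against 1.69, 2.07 and 1.96 in S714 ZT13 livers. The groups did not overlap, and Per1 fell by 2.05 on the log2 scale with a standard error of 0.259 (limma adjusted p = 0.0031). A second, dimmer Per1 probe gave 1.03 without passing the test (adjusted p = 0.176), and whether the human gene is read by either probe is not stated. Per2 fell by 1.25, with -0.45, 0.23 and 0.23 in S714G ZT1 livers and 0.97, 1.59 and 1.20 in S714 ZT13 livers (adjusted p = 0.011). Per3 averaged -3.78 ± 0.16 in S714G ZT1 livers and -2.47 ± 0.56 in S714 ZT13 livers (SD, n = 3 each), a difference of -1.31 that missed the threshold (adjusted p = 0.098).

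Nr1d1, the other REV-ERB gene, was called higher by 0.90 (limma adjusted p = 0.0433). It lost its call without any 1 array of S714G ZT1, S714 ZT13 or S714G ZT13, with adjusted p of 0.0551 to 0.16. Without S714 ZT13 replicate 3, 4 clock genes were called. With slide as a block the clock calls did not pass, with differences of -1.83 for Per1, -0.97 for Per2 and -2.45 for Ciart. Hlf, Bhlhe40 and Bhlhe41, of the clock-output and repressor families, were neither called nor matched.

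**Figure D2:**
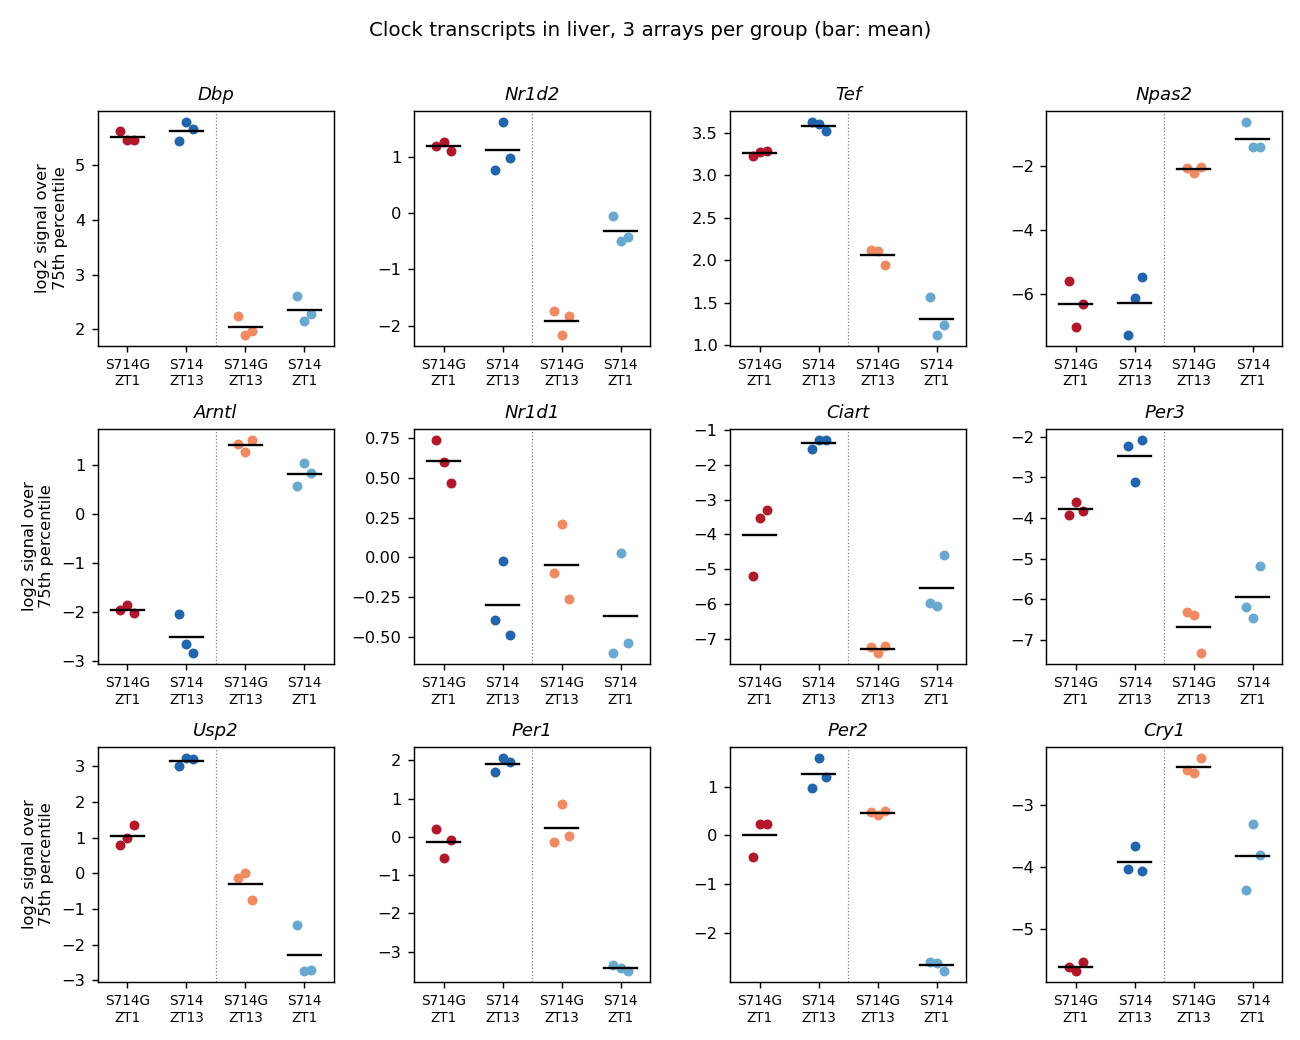
Log2 signal of 12 clock transcripts on each liver array, with S714G ZT1 beside S714 ZT13 on the left of each panel and S714G ZT13 beside S714 ZT1 on the right (points: arrays, bars: means of 3). Dbp, Nr1d2 and Tef lie at similar levels in S714G ZT1 and S714 ZT13, Npas2 lies at the background in both, and Ciart, Usp2, Per1, Per2 and Cry1 lie lower in S714G ZT1.

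On each array the mean of 8 daytime clock genes minus the mean of 5 late-night clock genes was taken as a clock index. It was 2.92, 3.45 and 3.47 in S714G ZT1 livers, against 4.02, 3.81 and 3.88 in S714 ZT13 livers, so the groups did not overlap. The difference was -0.62 (exact two-sided permutation p = 0.1, the smallest that 3 against 3 arrays allow). The index includes values at the floor, among them those of Npas2, of Cry1 in S714G ZT1 livers and of Ciart on S714G ZT1 replicate 1. Without that replicate the difference was -0.44. The index was -1.42 ± 0.18 in S714G ZT13 livers and -1.18 ± 0.28 in S714 ZT1 livers (SD, n = 3 each; exact p = 0.3).

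A match was not shared by every strongly swinging transcript. A list of 278 genes (1.27% of genes tested) was taken whose change between times of day differed between genotypes by at least 4-fold, a contrast that weighs S714G ZT1 and S714 ZT13 alike and does not use their difference. Of these, 49 matched (73.3% of all genes did), 61 were called (2.81% of all genes), 33 higher and 28 lower in S714G ZT1, and 168 were neither. Their median difference was 0.12 (-0.10 with normexp background, -0.14 with quantile normalization and -0.09 with slide as a block) and the median size 0.71, against 0.22 for all genes, beside a median interaction size of 2.86. Ppard, a fatty acid-sensing nuclear receptor gene, was low in both groups, with log2 signals of -1.12, -1.23 and -1.13 in S714G ZT1 livers and -0.55, -0.91 and -1.10 in S714 ZT13 livers, whereas it averaged 1.63 in S714G ZT13 livers and 0.91 in S714 ZT1 livers. The S714G ZT1 values lay just below the S714 ZT13 values without overlap, and the difference of -0.31 stayed inside the margin. Dnmt3b, a DNA methyltransferase gene, and Sox9 followed the same pattern, with differences of -0.17 and 0.25. Upp2, a liver uridine phosphorylase gene, was high in both groups, at 5.25 ± 0.20 in S714G ZT1 livers and 5.59 ± 0.25 in S714 ZT13 livers (SD, n = 3 each). Lpin2, Slc7a2, an arginine transporter gene, Sult1c2 and Tlr5, the flagellin receptor gene, were likewise high in both and matched, with differences between -0.52 and 0.19. Choice of these examples required a match, so they illustrate it and do not count for it.

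Light-following genes were defined as called in both crossed comparisons with opposite signs, so that the ZT1 or the ZT13 liver was higher in both pairs. This rule does not fix the direction of change between times within each genotype. The light-following genes numbered 281 (1.29% of genes tested), 154 higher at ZT1 and 127 higher at ZT13. Of these, 161 were at least 2-fold in the comparison of S714G ZT1 with S714 ZT13. For 171 of the 281 the interaction of genotype and time was also called (31.9% of all genes), and for 110 it was not. On slide 3, which held both genotypes at ZT13, the S714G ZT13 mean lay within 2-fold of the S714 ZT13 mean for 221 of the 281 and beyond it for 60. The same count over all genes was not made, so these counts cannot be read as particular to the light-following genes. All but 1 of the 281 kept the sign of their difference within slide 2. That was given in advance wherever no value was missing, since the groups did not overlap for any of the 281. Their count was 96, 97 and 134 without S714G ZT1 replicate 1, 2 or 3, 167 and 113 without S714 ZT13 replicate 1 or 2, and lower still without replicate 3. Without S714G ZT13 replicate 2 or 3 it was 179 and 172, without S714 ZT1 replicate 1 or 2 it was 582 and 447, and with slide as a block in both comparisons it was 12.

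**Figure D3:**
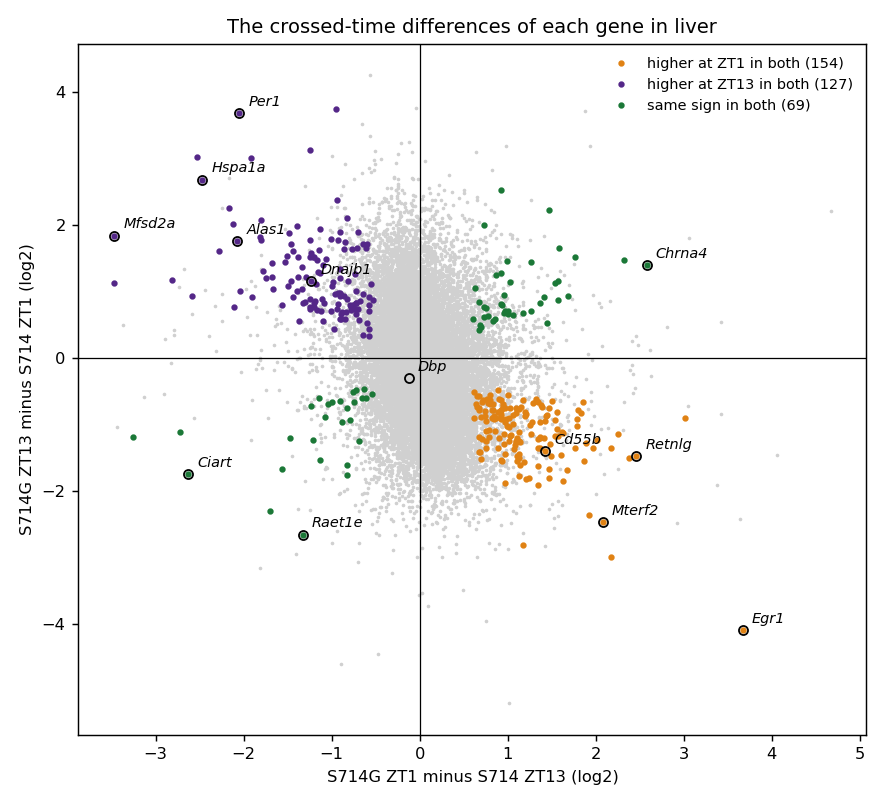
Difference S714G ZT1 minus S714 ZT13 (horizontal axis, log2) against S714G ZT13 minus S714 ZT1 (vertical axis, log2) for each gene tested in liver. Light-following genes lie at the lower right (higher at ZT1, 154) and upper left (higher at ZT13, 127), genes with the same sign in both (69) lie in the other corners, and Dbp lies near the centre.

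The heat shock genes Hspa1a and Dnajb1 met the light-following definition. Hspa1a, the inducible HSP70 gene with the heat shock element printed above, had log2 signals of -1.20, -0.70 and -0.56 in S714G ZT1 livers, against 1.72, 1.58 and 1.64 in S714 ZT13 livers. It fell by 2.47 on the log2 scale, 5.54-fold, with a standard error of 0.25 (limma adjusted p = 0.00107), and by 2.54 with slide as a block (adjusted p = 0.00263). It averaged 1.88 ± 0.47 in S714G ZT13 livers and -0.79 ± 0.29 in S714 ZT1 livers (SD, n = 3 each), so the ZT13 livers of both genotypes were high and the ZT1 livers of both were low. Hspa1a has a near-identical copy, Hspa1b, and the signal cannot be assigned to 1 of them with certainty.

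Dnajb1, which encodes a co-chaperone of HSP70, had 2.62, 2.72 and 2.62 in S714G ZT1 livers, against 3.85, 3.98 and 3.80 in S714 ZT13 livers. It fell by 1.23 with a standard error of 0.16 (limma adjusted p = 0.00332), and by 1.20 with slide as a block (adjusted p = 0.0219). In S714G ZT13 and S714 ZT1 livers it averaged 3.89 and 2.73. Unlike the Hspa1a window, neither Dnajb1 promoter window held a heat shock element. Of 17 measured heat shock and cold-inducible genes, Hspa1a and Dnajb1 were called lower (1.34% of all genes) and none was called higher. Of the 17, 12 matched (73.3% of all genes did), with a median of -0.17 beside -0.01 for all genes. Hspb1, a small heat shock protein gene, differed by 0.71 and missed the threshold (adjusted p = 0.0513), as did the cold-inducible Rbm3 at -0.62 (adjusted p = 0.0732). Without S714 ZT1 replicate 1, 4 members of the list were called.

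Alas1, the rate-limiting enzyme gene of haem synthesis, had log2 signals of 4.18, 3.98 and 4.20 in S714G ZT1 livers and 6.16, 6.12 and 6.29 in S714 ZT13 livers. It fell by 2.07 with a standard error of 0.193 (limma adjusted p = 0.00069), by 2.04 with slide as a block, and a second probe gave -2.80. Its S714G ZT13 livers averaged 5.08 and its S714 ZT1 livers 3.32, so the ZT13 livers were higher in both genotypes, to unequal degrees. Sik1, a salt-inducible kinase gene that answers to cAMP, fell by 1.80, with -0.72, -0.54 and -0.70 in S714G ZT1 livers and 1.44, 1.12 and 0.89 in S714 ZT13 livers (adjusted p = 0.00863), but it did not pass with slide as a block (-2.09, adjusted p = 0.0553). Of the 23 core clock genes 5 met the light-following definition (1.29% of all genes did), among them Per1 and Usp2. So did Slc25a25, a mitochondrial carrier gene (-1.80), and Rcan1, a calcineurin regulator gene (-1.81). Rcan1 lost its call without S714G ZT1 replicate 1 or 2 or S714 ZT13 replicate 1 or 3 (adjusted p = 0.0604 to 0.0855), and Slc25a25 lost it without any 1 of the 6 arrays of these groups (0.0614 to 0.108). Kbtbd8, an adaptor of ubiquitin ligases, was below background on all S714G ZT1 arrays and at least 2.9-fold lower there (adjusted p = 0.00274), and it too lost its call with slide as a block (adjusted p = 0.196).

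Among genes higher at ZT1 was Egr1, an immediate early transcription factor gene. Its log2 signals were 0.14, -0.59 and -1.14 in S714G ZT1 livers, against -4.85, -3.76 and -3.99 in S714 ZT13 livers, and only 1 of the 3 S714 ZT13 arrays was well above background, which leaves the size of the difference uncertain. Egr1 rose by 3.67 with a standard error of 0.613 (limma adjusted p = 0.0112), lost its call without S714G ZT1 replicate 1 (3.33, adjusted p = 0.0548), and kept it with slide as a block (4.32, adjusted p = 0.0154). In the other pair it averaged -3.0 ± 1.5 in S714G ZT13 livers and 1.10 ± 0.30 in S714 ZT1 livers (SD, n = 3 each). Cd55b, which encodes a complement decay-accelerating factor, had 1.47, 1.65 and 1.43 in S714G ZT1 livers and -0.27, 0.02 and 0.51 in S714 ZT13 livers. It rose by 1.43 (adjusted p = 0.006), and by 1.79 with slide as a block. Clec14a, an endothelial lectin gene, rose by 1.49, with 0.51, 0.38 and 0.70 in S714G ZT1 livers and -1.12, -1.22 and -0.53 in S714 ZT13 livers (adjusted p = 0.00361). Cd55b and Clec14a lay at like levels in both genotypes at ZT13, differing by -0.12 and 0.10 between S714G and S714 on slide 3.

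Retnlg, a resistin-like gene expressed in neutrophils, rose by 2.46 with no overlap of groups (adjusted p = 0.00332). Mterf2, which encodes a regulator of mitochondrial transcription, rose by 2.08, and the retrogene Rps23rg1 by 1.63. A second Rps23rg1 probe gave -0.09 (limma adjusted p = 0.914), so the rise was not shared by its probes. Gdf15, a stress-responsive cytokine gene, rose by 1.47 (adjusted p = 0.0112) but lost its call without S714G ZT1 replicate 1 or S714 ZT13 replicate 3 (adjusted p = 0.0549 and 0.0556). Mfap4, also in this class, had 1 usable value in each group, and its missing values were dropped by the fit. With slide as a block, Mterf2 and Retnlg kept their calls, while Rps23rg1 and Gdf15 did not (adjusted p = 0.0783 and 0.294).

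**Figure D4:**
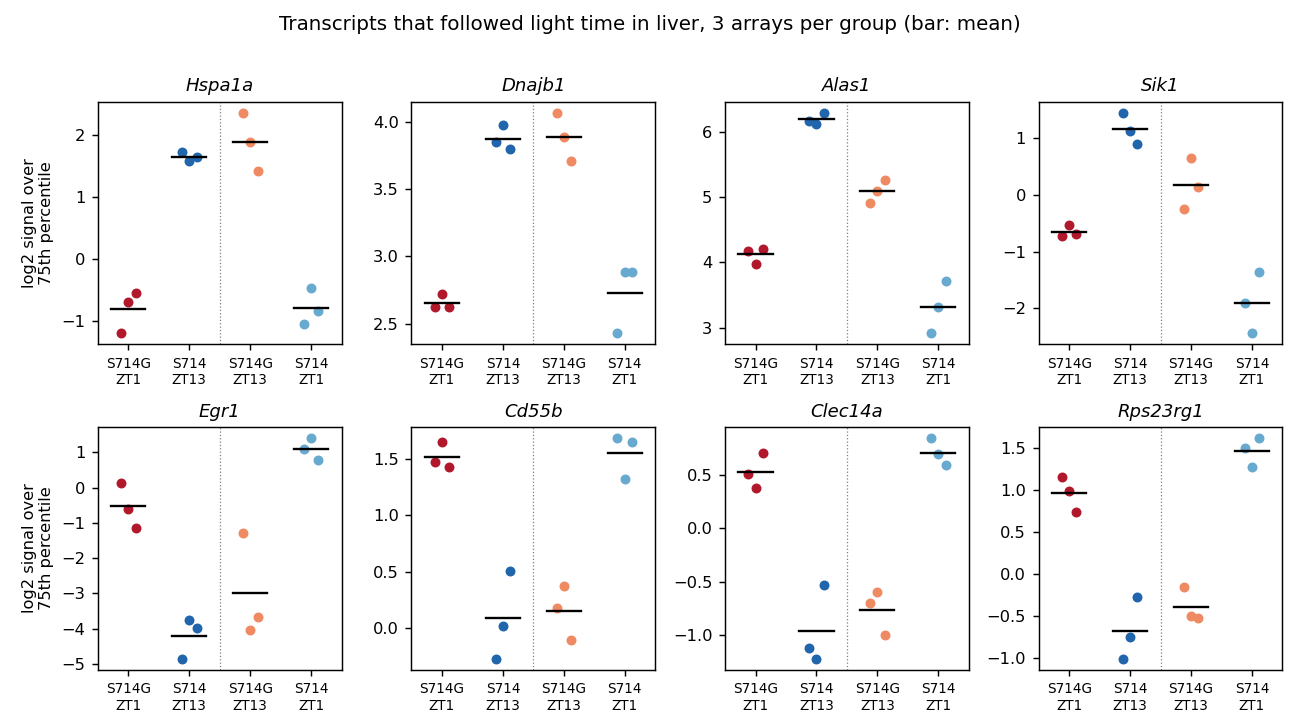
Log2 signal of 8 light-following transcripts on each liver array, with S714G ZT1 beside S714 ZT13 on the left of each panel and S714G ZT13 beside S714 ZT1 on the right (points: arrays, bars: means of 3). Hspa1a, Dnajb1, Alas1 and Sik1 were higher at ZT13 in both pairs, and Egr1, Cd55b, Clec14a and Rps23rg1 were higher at ZT1 in both.

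Genes that answer to glucocorticoids were lower as a group in the S714G liver at ZT1 than in the control liver at ZT13. Their mean log2 signal per array was 1.08 to 1.31 in S714G ZT1 livers and 2.36 to 2.53 in S714 ZT13 livers. It was 1.38 to 1.82 in S714G ZT13 livers and 1.25 to 1.49 in S714 ZT1 livers, so the S714 ZT13 livers stood furthest from the rest. Of 17 measured members of that list, 10 were called lower (1.34% of all genes), none was called higher and 4 matched (73.3% of all genes). The median difference was -1.48 beside -0.01 for all genes. Fkbp5, a co-chaperone gene of the glucocorticoid receptor, had log2 signals of 2.04, 1.19 and 1.43 in S714G ZT1 livers, against 3.66, 3.95 and 3.80 in S714 ZT13 livers. The groups did not overlap, and Fkbp5 fell by 2.25 with a standard error of 0.259 (limma adjusted p = 0.00242). Tsc22d3, the gene of the anti-inflammatory protein GILZ, had 2.14, 2.31 and 2.21 in S714G ZT1 livers, against 3.69, 3.55 and 3.58 in S714 ZT13 livers. It fell by 1.38 (adjusted p = 0.00532).

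Dusp1, which encodes a MAP kinase phosphatase, had -2.69, -2.29 and -2.18 in S714G ZT1 livers, against 0.57, 0.33 and 0.65 in S714 ZT13 livers. It fell by 2.90 with a standard error of 0.238 (limma adjusted p = 0.000438). Cebpd, a C/EBP transcription factor gene, fell by 1.65, with 0.74, 0.59 and 0.86 in S714G ZT1 livers and 2.42, 2.31 and 2.41 in S714 ZT13 livers (adjusted p = 0.000438). The list's other called members were Per1, described above, chosen for mention after their values were seen, Mt2, a metallothionein gene (-2.03), Sult1e1, an oestrogen sulfotransferase gene (-1.93), Zbtb16 (-1.60), Errfi1, an inhibitor of the EGF receptor (-1.48), and Ddit4, an inhibitor of mTORC1 signalling (-1.45). Mt1 differed by -1.75 and missed the threshold (adjusted p = 0.0842). Tat, Klf9, Igfbp1 and Cdkn1a matched, with differences between -0.15 and 0.03, although they are also known to answer to glucocorticoids. Sgk1 and Lcn2 were neither called nor matched.

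The count of called members was 2 with slide as a block, Dusp1 (-2.95, adjusted p = 0.000985) and Fkbp5 (-2.11, adjusted p = 0.0054), while the median of the list there was -1.47. It was 6 without S714G ZT1 replicate 3 and 5 without S714 ZT13 replicate 2 or 3. In the other crossed comparison 4 members were called higher in S714G ZT13 (18.6% of all genes) and 4 lower (30.1% of all genes), and the median was -0.22. Only Per1, Tsc22d3 and Errfi1 of this list met the light-following definition, as Fkbp5 (2.67 in S714G ZT13 and 2.11 in S714 ZT1), Dusp1 (-1.40 and -0.86) and Cebpd (1.31 and 1.12) were not called there.

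**Figure D5:**
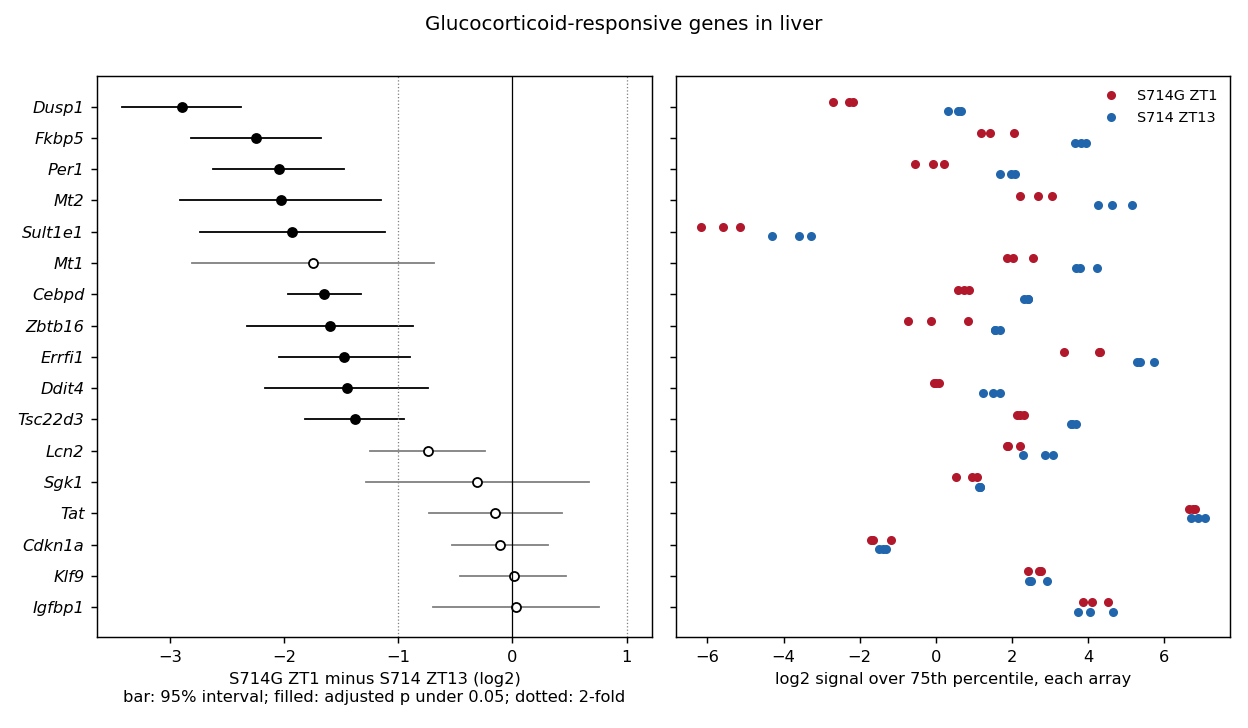
The 17 measured glucocorticoid-responsive genes, with the difference S714G ZT1 minus S714 ZT13 and its 95% interval on the left (log2, filled where adjusted p was below 0.05) and the log2 signal of each array on the right. Every filled point, from Dusp1 at -2.90 to Tsc22d3 at -1.38, lies below 0, and Tat, Klf9, Igfbp1 and Cdkn1a lie near 0.

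Immediate early genes, which are transcribed within minutes of a stimulus, did not move together. Of 14 measured members, Egr1 and Junb were called higher (1.47% of all genes) and Jun and Dusp1 lower (1.34% of all genes). A further 5 matched (73.3% of all genes), and the median was -0.49. Jun had log2 signals of 1.27, 0.78 and 1.10 in S714G ZT1 livers, against 2.61, 2.38 and 2.28 in S714 ZT13 livers, and fell by 1.37 (limma adjusted p = 0.00361). Junb had -0.17, -0.51 and -0.27 in S714G ZT1 livers, against -1.90, -1.64 and -2.10 in S714 ZT13 livers, and rose by 1.56 (adjusted p = 0.0406). The partners in the AP-1 factor thus differed in opposite directions with no overlap of groups in either. Jun kept its call with slide as a block (adjusted p = 0.0313). Junb did not (adjusted p = 0.484), and it also lost its call without any 1 of the 6 arrays of these groups or without S714G ZT13 replicate 2, at adjusted p of 0.0574 to 0.141. Without S714G ZT1 replicate 1, only 2 members of the list were called.

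Among the named genes, most of the largest differences in either direction fell outside the clock. Depp1, a gene induced by FOXO factors and by fasting, had log2 signals of 5.40, 4.93 and 4.58 in S714G ZT1 livers, against 1.34, 2.32 and 0.99 in S714 ZT13 livers. It rose by 3.42 with a standard error of 0.442 (limma adjusted p = 0.00332). Arrdc3, an alpha-arrestin gene that controls receptor traffic, had 3.38, 2.85 and 2.86 in S714G ZT1 livers, against -0.49, 0.39 and 0.17 in S714 ZT13 livers, and rose by 3.01 (adjusted p = 0.00154). Both kept their calls with slide as a block, at 3.63 and 3.52, and neither group overlapped the other.

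Neat1, the long non-coding RNA of paraspeckles, rose by 2.25, with 1.89, 1.73 and 1.85 in S714G ZT1 livers and 0.02, -1.06 and -0.25 in S714 ZT13 livers (limma adjusted p = 0.00843), but did not pass with slide as a block (1.81, adjusted p = 0.197). Nfe2, a blood-cell transcription factor gene, rose by 2.48 and Gngt1, a G protein subunit gene, by 2.63, and with slide as a block Nfe2 kept its call (adjusted p = 0.0395) and Gngt1 did not (adjusted p = 0.0946). Pim1, a kinase gene, was called higher by 2.39 (adjusted p = 0.042), but S714 ZT13 replicate 2 lay at -1.05 while the others lay at -2.83 and -3.47. Its call was lost without any S714G ZT1 or S714G ZT13 array and without S714 ZT13 replicate 1 or 3, at adjusted p of 0.0608 to 0.15. Dhrs9, a retinol dehydrogenase gene, was below background on every S714 ZT13 array and at least 1.78-fold higher in S714G ZT1 (adjusted p = 0.00426, and 0.192 with slide as a block). Oas1d was called higher by 2.43 from 2 usable S714G ZT1 arrays, and lost its call without S714G ZT1 replicate 1 or 2, S714 ZT13 replicate 2 or 3 or any S714G ZT13 array (adjusted p of up to 0.238).

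In the lower direction, Mfsd2a, a lysophosphatidylcholine transporter gene, had log2 signals of 1.13, 0.09 and 1.13 in S714G ZT1 livers, against 4.01, 4.28 and 4.46 in S714 ZT13 livers. It fell by 3.47, 11.1-fold, with a standard error of 0.377 (limma adjusted p = 0.00154), although with slide as a block the adjusted p was 0.186. Ovgp1 and Serpina5, a serine protease inhibitor gene, were below background on every S714G ZT1 array. They were at least 5.29-fold and 3.25-fold lower there, and Serpina5 lost its call with slide as a block (adjusted p = 0.117). Plin4, a lipid droplet protein gene, fell by 2.79 (adjusted p = 0.00278), Plk3, a stress-responsive kinase gene, by 2.73 and Onecut1, a hepatocyte transcription factor gene, by 2.68. Tsku, the gene of a hepatokine, fell by 2.53, with 0.05, 1.26 and 2.01 in S714G ZT1 livers and 4.13, 3.41 and 3.36 in S714 ZT13 livers. Plk3 lost its call without S714G ZT1 replicate 1 or 2 (adjusted p = 0.0541 and 0.055). Onecut1 lost its call without any S714G ZT1 array or S714 ZT13 replicate 2 or 3, and Tsku without S714G ZT1 replicate 1 or 2 or any S714 ZT13 array. Chek1, a DNA damage checkpoint kinase gene at least 2.78-fold lower in S714G ZT1, lost it without any S714G ZT1 array or S714 ZT13 replicate 1 or 2.

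Of the enzyme genes of lipid and glucose handling, Lpin1 and Pfkfb3 were far apart, and the share that matched was near or below the 73.3% of all genes. Of 23 fatty acid and triglyceride synthesis genes, 15 matched, and the median was 0.08. Elovl3 and Acss2 were called higher (1.47% of all genes) and Lpin1 was called lower (1.34% of all genes). Lpin1, a phosphatidate phosphatase gene, had log2 signals of 2.23, 1.96 and 2.26 in S714G ZT1 livers, against 4.33, 4.93 and 4.96 in S714 ZT13 livers. It fell by 2.59 with a standard error of 0.222 (limma adjusted p = 0.000438), by 2.18 with slide as a block (adjusted p = 0.000211), and a second probe gave -3.94. Elovl3, a fatty acid elongase gene, rose by 1.14 and Acss2, which activates acetate, by 0.75, but both lost their calls with slide as a block and without any 1 of the 6 arrays of these groups. Acss2 lost it also without any S714G ZT13 array or S714 ZT1 replicate 3.

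Pfkfb3, whose enzyme sets the level of an activator of glycolysis, had -0.11, 0.08 and 0.36 in S714G ZT1 livers, against 2.86, 2.90 and 3.0 in S714 ZT13 livers. It fell by 2.81 with a standard error of 0.175, and its limma adjusted p of 7.88e-05 was below that of the other genes named here. Within slide 2 the difference was -2.75. Foxo1, a transcription factor gene of fasting metabolism, was called lower by 0.76 but not without S714G ZT1 replicate 2 or 3 or any S714 ZT13 array (adjusted p = 0.0528 to 0.107), and 15 of the 19 gluconeogenesis and glucose use genes matched. Gys2, the liver glycogen synthase gene, had 4.61, 4.65 and 4.63 in S714G ZT1 livers, against 5.53, 5.88 and 5.79 in S714 ZT13 livers, and fell by 1.10 (adjusted p = 0.00716), while 9 of 12 glycogen genes matched. With slide as a block Gys2 was not called (-0.90, adjusted p = 0.766).

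Among 23 cholesterol synthesis and uptake genes, 2 were called higher (1.47% of all genes), none was called lower and 13 matched. Their median was 0.54. Mvd, the mevalonate decarboxylase gene, had 2.82, 2.42 and 2.48 in S714G ZT1 livers, against 1.27, 0.82 and 1.0 in S714 ZT13 livers, and rose by 1.54 (limma adjusted p = 0.0182). Hmgcs1, which encodes an early enzyme of that pathway, rose by 0.68 (adjusted p = 0.0281). No member passed with slide as a block, without S714G ZT1 replicate 1 or 2, or without S714 ZT13 replicate 2 or 3. In those fits Mvd had adjusted p of 0.0566 to 0.431, and it lost its call without S714G ZT1 replicate 3 as well (0.0531). Hmgcs1 lost its call also without S714 ZT13 replicate 1 or S714G ZT13 replicate 3. Without S714 ZT1 replicate 1 or 2, 8 and 4 members were called.

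Of 24 PPAR alpha targets 18 matched, and Pdk4, which encodes an inhibitor of pyruvate dehydrogenase, was called higher by 1.35 (limma adjusted p = 0.0338). Of 16 bile acid genes 12 matched, and Cyp8b1, the sterol hydroxylase gene of cholic acid synthesis, was called higher by 0.91. Cyp7a1, the rate-limiting enzyme gene of bile acid synthesis, averaged 2.86 ± 0.34 in S714G ZT1 livers and 3.95 ± 0.19 in S714 ZT13 livers (SD, n = 3 each). The groups did not overlap, but the difference of -1.09 missed the threshold (adjusted p = 0.118). Pdk4 and Cyp8b1 lost their calls with slide as a block (adjusted p = 0.656 and 0.9997). Pdk4 lost its call also without S714G ZT1 replicate 1 or 3, any S714 ZT13 array or S714G ZT13 replicate 2 or 3, and Cyp8b1 without S714G ZT1 or S714 ZT13 replicate 2 or 3.

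Nampt, the rate-limiting gene of NAD salvage, fell by 1.44, with 1.95 and 2.20 on its 2 usable S714G ZT1 arrays and 3.27, 3.75 and 3.52 in S714 ZT13 livers (limma adjusted p = 0.00716). It lost its call without S714G ZT1 replicate 2, which leaves 1 usable array (adjusted p = 0.0701). Nmrk1, the nicotinamide riboside kinase gene, fell by 1.13 but lost its call without any 1 of the 6 arrays of these groups or S714G ZT13 replicate 2 or 3, and 12 of 15 NAD salvage and sirtuin genes matched. Mthfd1l, a mitochondrial folate enzyme gene, had -3.02, -2.25 and -2.24 in S714G ZT1 livers, against -0.06, 0.20 and 0.10 in S714 ZT13 livers, and fell by 2.59 (adjusted p = 0.00186). It kept its call with slide as a block (adjusted p = 0.0025). Of 16 one-carbon and serine genes 10 matched.

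Housekeeping groups were close to level. Of 28 cytosolic ribosomal protein genes 27 matched (73.3% of all genes did) and none was called, with differences between -0.28 and 0.14. Of 23 oxidative phosphorylation genes 21 matched and none was called. Ribosome biogenesis genes had a lower median, -0.46, and 3 of 22 were called lower (1.34% of all genes). They were Nolc1 (-1.29), a nucleolar phosphoprotein gene, and Rrp12 (-1.20) and Nop2 (-0.93), both of ribosomal RNA maturation. None of the 3 passed with slide as a block, or without S714G ZT1 replicate 1 or 2 or S714 ZT13 replicate 3. Of 14 proliferation genes 0 were called. The cell cycle genes Wee1 (-1.06), a clock-controlled mitotic inhibitor, and Ccne1 (-1.62) were called lower among 11 clock-linked cell cycle genes (1.34% of all genes). Both lost their calls without S714G ZT1 replicate 1 or 2 or S714 ZT13 replicate 2 or 3, Wee1 also without S714 ZT13 replicate 1, and Ccne1 also without S714G ZT13 replicate 2 or 3.

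In the remaining functional lists few genes were called, beside 2.81% called and 73.3% matched over all genes. Of 22 haem and xenobiotic genes 17 matched, with Alas1 and Nr1i3, the gene of the xenobiotic receptor CAR (-0.77), called lower. Of 22 genes of the unfolded protein and amino acid response 13 matched, and Trib3, a stress-induced pseudokinase gene, was called higher, with 1.34, 0.94 and 1.10 in S714G ZT1 livers and -0.22, 0.28 and -0.21 in S714 ZT13 livers. Igfbp4, a binding protein gene for insulin-like growth factors, was called lower by 0.66 among 14 genes of that axis, of which 12 matched. Nr1i3, Trib3 and Igfbp4 lost their calls with slide as a block and without any 1 array of S714G ZT1, S714 ZT13 or S714G ZT13. Nr1i3 lost its call also without S714 ZT1 replicate 3. Of 18 acute phase genes 17 matched, of 15 interferon-stimulated genes 8 matched, and none of either list was called. Of 11 male-biased liver genes 8 matched and Elovl3 was called, and of 13 lipolysis and lipid droplet genes 8 matched and Plin4 was called.

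Genes called in the same direction in both crossed comparisons, termed genotype-following here, numbered 69 (0.316% of genes tested), 41 higher and 28 lower in S714G. Neither comparison sets the genotypes side by side at the same light time, so the rule does not fix a genotype difference at each time. Chrna4, a nicotinic receptor subunit gene, had log2 signals of -0.75, -0.70 and -1.03 in S714G ZT1 livers, against -4.05, -2.91 and -3.27 in S714 ZT13 livers. It rose by 2.58 (limma adjusted p = 0.0025), and it averaged -1.88 ± 0.46 in S714G ZT13 livers and -3.28 ± 0.28 in S714 ZT1 livers (SD, n = 3 each). Mef2c, a transcription factor gene, rose by 1.27 with no overlap of groups, and by 1.44 in the other pair.

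The paralogous Acnat1 and Acnat2, acyltransferase genes of near-identical sequence whose signals may mix, were called higher by 1.58 and 1.76. In the S714 ZT13 group replicate 1 lay above the others, at 0.61 against -0.98 and -0.46 for Acnat1. Both lost their calls without any S714G ZT1 or S714G ZT13 array or S714 ZT13 replicate 2 or 3, and Acnat2 also without S714 ZT1 replicate 3. Lower in both pairs were Ciart, described above, Raet1e, an NKG2D ligand gene (-1.33), Pde6c, a phosphodiesterase gene (-1.47), and Taf7l2 (-1.56). Raet1e and Taf7l2 lost their calls without any S714G ZT1 or S714 ZT13 array or S714G ZT13 replicate 1 or 2, and Raet1e also without S714G ZT13 replicate 3 or S714 ZT1 replicate 3. With slide as a block in both comparisons no gene met the genotype-following definition, although Chrna4 kept its call in the comparison of S714G ZT1 with S714 ZT13. Mef2c and Pde6c lost theirs there (adjusted p = 0.164 and 0.168). Their count was 13, 13 and 25 without S714G ZT1 replicate 1, 2 or 3, 44, 13 and 18 without S714 ZT13 replicate 1, 2 or 3, and 31, 37 and 29 without S714G ZT13 replicate 1, 2 or 3. Without S714 ZT1 replicate 1 or 2 it was 132 and 142.

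The liver label held in both groups. Across 12 hepatocyte markers, among them Alb, Apoa1 and Ttr, the mean log2 signal per array was 6.27 to 6.61 in S714G ZT1 livers and 6.40 to 6.92 in S714 ZT13 livers. Of these 9 matched, and Hnf4a, a hepatocyte transcription factor gene, was called lower by 0.62. Kupffer cell and macrophage markers were higher in S714G ZT1 livers, at 2.47 to 2.66, against 2.11 to 2.29 in S714 ZT13 livers. Of those 12 markers Adgre1, a classical macrophage surface marker, was called (0.67, limma adjusted p = 0.0421), and the median was 0.42. Neutrophil markers were also higher, at -1.72 to -1.41 in S714G ZT1 livers and -2.64 to -2.25 in S714 ZT13 livers. Among 6 measured, S100a8 (1.47) and Retnlg (2.46) were called higher (1.47% of all genes). Mpo, a defining neutrophil gene, was well above background on 0 of the 6 arrays. Endothelial markers had a median of 0.19 with Tek called (0.78), and stellate cell markers a median of 0.35 with none called. No marker of cholangiocytes, T and NK cells, B cells, erythroid cells, adipocytes, skeletal muscle, pancreas or mesothelium was called. T and NK cell markers nonetheless lay at -1.71 to -1.66 in S714G ZT1 livers and -2.28 to -1.87 in S714 ZT13 livers. B cell markers lay at -0.49 to -0.10 in S714G ZT1 livers and -1.04 to -0.66 in S714 ZT13 livers, with no overlap in either list. In the other pair these immune markers were also higher at ZT1, in S714 livers that lay on slide 1 alone. Kupffer cell and macrophage markers were at 2.67 to 2.79 in S714 ZT1 against 1.88 to 2.39 in S714G ZT13, and neutrophil markers at -1.32 to -0.75 against -2.15 to -1.75. T and NK cell markers were at -1.28 to -1.25 against -2.09 to -1.69, and B cell markers at 0.03 to 0.21 against -1.01 to -0.59.

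In bulk tissue, fewer cells of a type and less RNA per cell cannot be told apart. The part of these marker shifts in the differences above was not tested. Clec14a and Retnlg are themselves genes of endothelium and neutrophils. The calls of Adgre1, S100a8 and Hnf4a were lost with slide as a block and without any 1 of the 6 arrays of these groups, and that of Tek with slide as a block and without any 1 of them but S714 ZT13 replicate 3. That of Retnlg was kept in all of these fits.

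The same contrast was made in white adipose tissue of these groups, and the liver difference was tested against it in a fit of all 24 arrays. Of the genes tested, 181 (0.829%) differed between the tissues, among them Pfkfb3, Depp1, Lpin1 and Hspa1a, whose liver differences were larger in size, and Arntl, whose adipose difference was larger. The count was 7368 without adipose S714G ZT1 replicate 3, the array of its group on another slide, and 69 to 108 without any other 1 array of this contrast.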

How the data were processed

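RNA of liver and white adipose tissue was measured on 24 Agilent 1-colour arrays, 3 per genotype, time and tissue. The authors deposited scanner intensities made with Agilent Feature Extraction 10.7.3.1, per the file headers. The processed intensity is background-subtracted and not scaled between arrays. The deposited flags (a value of another kind) mark spots well above background, saturated or outlying. No spot was saturated. The deposited value table holds log2 signals with each array's 75th percentile at 0. The scanner signal treated that way differed from it by an offset particular to each array (median -0.187 to -0.0959 log2). Once that offset was removed, 100% of the values compared lay within 0.01.

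From these, log2 of the processed signal minus the array's 75th percentile was computed, control and outlier spots were left out, spots of a probe were averaged and each gene took its brightest probe. Of 55681 probes, 26864 were named by accession, 3751 by symbol and 623 by synonym through RefSeq, and 24443 kept the file's name, so some names may be old. Probe positions follow the array design on mm9. A gene entered the test if every array of 1 or more liver groups read it well above background. A group above background on no array was given as a bound.

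The 12 liver arrays were fitted with 4 group means in limma 3.58.1 under R 4.3.3, by lmFit followed by eBayes, and p-values were adjusted over all 21836 genes by Benjamini-Hochberg. The script was tested on simulated data. Named genes were all core clock genes, the 15 largest called differences per direction without overlap, 10 light-following, 10 matched strongly swinging and 5 genotype-following genes per direction, and up to 4 genes of lowest p per list. Other list members were named after their values were seen. A few genes that the rule selects are not reported here. Members, lists and rules were chosen with earlier results of these data known. The number of arrays limits the precision. Alternatives were other background correction, normalization, filter, probe choice, arrays in the fit, slide block, replicate block and leaving out each array. Files were read with data.table, version 1.17.8, and Python 3.11.15 was used with pandas 2.3.3, numpy 2.4.6 and scipy 1.17.1. Figures were drawn with matplotlib 3.10.9.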

Additional observations from a re-analysis of the deposited data

Results flagged for a closer look

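The difference between S714G ZT1 and S714 ZT13 was itself set against the same difference in white adipose tissue, in a limma fit of all 24 arrays. That test of the tissue difference was passed by 181 genes (0.829% of genes tested), 17 of them among the genes named by rule. In adipose tissue alone 4199 genes were called (19.2%). The adipose S714G ZT1 replicates 1 and 2 lay on slide 1, while replicate 3 and the adipose S714 ZT13 arrays lay on slide 2, and the part of slide in these values was not tested gene by gene. With slide as a block 21 genes passed. Without adipose S714G ZT1 replicate 3 the count was 7368, and without any other 1 array of this contrast it was 69 to 108.

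Several of the genes with the largest liver differences were flagged because the liver value exceeded the adipose value. Pfkfb3, the glycolytic regulator gene, fell by 2.81 in liver against a value of 0.55 in adipose tissue, a tissue difference of -3.36 (adjusted p = 3.04e-06). Depp1 rose by 3.42 in liver and fell by 2.13 in adipose tissue, a tissue difference of 5.55 (adjusted p = 5.33e-05). Plin4, the lipid droplet gene, differed by -2.79 in liver and 0.50 in adipose tissue, a tissue difference of -3.29 (adjusted p = 0.00105). Lpin1 differed by -2.59 and -0.56, a tissue difference of -2.03 (adjusted p = 0.00197).

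Hspa1a differed by -2.47 in liver and -0.14 in adipose tissue, a tissue difference of -2.33 (adjusted p = 0.00678). Alas1 gave -2.07 and -0.31 in liver and adipose tissue, which differ by -1.76 (adjusted p = 0.00847), and Dusp1 gave -2.90 and -0.74, which differ by -2.16 (adjusted p = 0.0159). Among genes higher in S714G ZT1 liver, Arrdc3 gave 3.01 in liver and 0.19 in adipose tissue, a tissue difference of 2.82 (adjusted p = 0.00678). Chrna4 gave 2.58 and -0.54, a tissue difference of 3.12 (adjusted p = 0.00663). Oas1d gave 2.43 and -1.29, a tissue difference of 3.72 (adjusted p = 0.0151), and the small nuclear RNA gene Rnu2-10 gave 1.92 and -1.90, a tissue difference of 3.82 (adjusted p = 0.0145).

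Other genes were flagged because the adipose value exceeded the liver value or had the opposite sign. Arntl differed by 0.55 in liver and 2.50 in adipose tissue, a tissue difference of -1.94 (adjusted p = 0.0195). Retnlg gave 2.46 in liver and 5.28 in adipose tissue, a tissue difference of -2.81 (adjusted p = 0.00909). Timd4, a macrophage marker, gave 0.56 and 2.44, a tissue difference of -1.88 (adjusted p = 0.029), and Lcn2, an acute phase gene, gave -0.74 and 1.46, a tissue difference of -2.20 (adjusted p = 0.0222). Raet1e gave -1.33 and 1.23, a tissue difference of -2.56 (adjusted p = 0.0145), and Pde6c gave -1.47 and 0.84, a tissue difference of -2.31 (adjusted p = 0.0346).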

How the results depend on the processing

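The median difference of the strongly swinging list, 0.12, turned to -0.10 with normexp background, -0.14 with quantile normalization and -0.09 with slide as a block, and the clock index kept its sign. The causes of changes were not tested, except where fewer or more features or arrays entered. Called genes numbered 614 (321 higher and 293 lower in S714G ZT1), 282 higher and 300 lower with normexp background, 402 (196 and 206) with quantile normalization, 345 (176 and 169) with all 24 arrays, and 171 (78 and 93, 154 over 2-fold) without the filter on dim probes. They numbered 83 (32 and 51, all over 2-fold) with slide as a block, 38 (16 and 22, all over 2-fold) within slide 2, where the lone S714 ZT13 array is assumed to vary like the other groups, and 1937 (972 and 965) without the S714 ZT1 arrays, an alternative added after seeing the data. Matched genes numbered 6583 with a 1.5-fold margin and 10422 with slide as a block. Light-following genes numbered 154 with 24 arrays, 88 without the filter and 12 with slide as a block. Genotype-following genes numbered 39 with quantile normalization, 24 with 24 arrays, 11 without the filter and 0 with slide as a block. The strongly swinging list held 125 genes with normexp background, and 28 of its genes were called without the filter and 13 with slide as a block. Genes whose difference differed from adipose tissue numbered 118 with quantile normalization, 68 without the filter and 21 with slide as a block.

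Leaving out 1 array gave 170 to 1306 called genes (77 to 690 higher, 93 to 616 lower, 159 to 417 over 2-fold), 14296 to 16888 matched, 96 to 582 light-following and 13 to 142 genotype-following genes. The strongly swinging list then held 255 to 293 genes, 27 to 76 called and 34 to 67 matched, with a median of 0.03 to 0.19. The clock index differed by -0.72 to -0.44. Genes that differed from adipose tissue numbered 69 to 7368, the highest without adipose S714G ZT1 replicate 3. Same-numbered arrays did not deviate together (r of -0.118, 0.053 and -0.014), and the main fits treated all arrays as independent. These values alone do not settle whether same-numbered samples came from the same mouse. With the replicate block 409 genes were called (177 lower), with 32 genotype-following genes and 117 that differed from adipose tissue. Genes near background, such as Npas2 and Cry1, are limited by signal.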
